A study of Mus musculus with 6 samples.

Results

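The Wnt pathway genes described here are 10 genes for secreted inhibitors, receptors and effectors of Wnt signalling, and all were found by name in the deposited count table of 13024 genes. They are the secreted inhibitors Sfrp1, Sfrp2 and Dkk3, the receptors Fzd1 and Fzd3, the co-receptors Lrp5 and Lrp6, the scaffold and feedback target Axin2, and the DNA-binding effectors Tcf7l2 and Lef1. All 10 were among the 12879 genes that passed the filter on low counts. RNA-Seq was performed on mouse lenses at E14.5, in 3 pools labelled wild type (control) and 3 pools labelled Gata3 -/- (CKO), each of 10 lenses from 5 embryos on a mixed C57BL/6 and FVB strain. The CKO embryos were Gata3 f/f with the Pax6-Cre transgene, in which Cre removes Gata3 exon 4. The controls carried no Cre, and the study gives them as Gata3 f/wt in one place and as Gata3 f/f in another. Because Pax6-Cre was present in the CKO pools alone, an effect of Cre and an effect of losing Gata3 cannot be told apart. Pax6-Cre is driven by a Pax6 enhancer active in the lens and corneal precursors of the head ectoderm, so that other cells dissected with the lens are not a uniform knockout. Nothing in the labels says which embryos came from one litter.

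Wnt ligands are secreted proteins that bind a Frizzled receptor together with Lrp5 or Lrp6 at the cell surface. In the canonical branch this frees β-catenin (Ctnnb1) from a destruction complex built on Axin proteins, and β-catenin then acts with TCF and LEF proteins at target genes. Secreted Frizzled-related proteins bind Wnt ligands outside the cell, and Axin2 is both part of the destruction complex and a widely used readout of the pathway. In the lens, Wnt signalling is known for its parts in the epithelium, in fibre cell polarity and in keeping surface ectoderm from taking a lens fate.

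Libraries held 15157230 to 18811104 counts, and the 10 genes were read with between 167 counts (Lef1 in CKO pool 1) and 24212 counts (Dkk3 in CKO pool 3). Gata3 itself had 202, 386 and 156 counts in the control pools and 910, 1064 and 894 counts in the pools labelled CKO, so its gene-level count was higher where the label says it was deleted. Counts over the whole gene do not single out exon 4, which the study examined on its own and which was not analysed here, so they do not check the label. CKO therefore stands for the pools labelled CKO throughout. Crystallins took 5.47% to 16.5% of all counts, and crystallins are the main proteins of the lens. The pools differed in their marker RNA, given here as summed CPM (counts scaled to library size by TMM). The sum of lens fibre markers ran from 54869 to 160754 in controls and from 50189 to 68829 in CKO pools. That of periocular mesenchyme markers ran from 319 to 2394 in controls and from 363 to 4206 in CKO pools. All 13 lens fibre markers tested had a log2 fold change below 0 (median -0.87, 5 with an unadjusted edgeR p under 0.05). It was above 0 for 11 of 12 retina markers and 10 of 11 periocular mesenchyme markers (medians 0.17 and 0.61). None of these had an unadjusted p under 0.05. All 4 lens epithelium, 6 blood and 7 macrophage markers tested were below 0 (medians -0.35, -0.61 and -0.43), as were 7 of 8 vessel markers (median -0.33). Among these, 1 macrophage marker had an unadjusted p under 0.05. Pigment cell markers (2 below, 4 above) and surface ectoderm markers (3 and 3) were split. The part of the marker lists in the results was not tested. In bulk lenses, fewer cells of a type and less RNA per cell cannot be told apart.

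No difference between the groups was detected for any of the 10 genes, and their levels overlapped in all cases. In edgeR's quasi-likelihood test the adjusted p rounded to 1.0 for each of them, and no member reached an unadjusted p under 0.05, where 3.55% of the 12879 genes did. For no member did the 3 CKO pools lie all above or all below the 3 control pools, which was so for 8.36% of all genes. In edgeR 0 of all genes tested passed at an adjusted p of 0.05 (0%), and 457 had an unadjusted p under 0.05, while DESeq2 called 85 genes (0.66%), none of which was a member. The log2 fold change was below 0 for 5 of the 10 and above 0 for 5, with a median of -0.02, beside 0.00 over all genes tested. The 95% intervals of all 10 lay inside a 2-fold change in either direction, and those of 7 inside 1.5-fold. Sfrp1, Sfrp2 and Axin2 were the members whose intervals reached past 1.5-fold, so that a change of that size lies within their intervals.

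**Figure D1:**
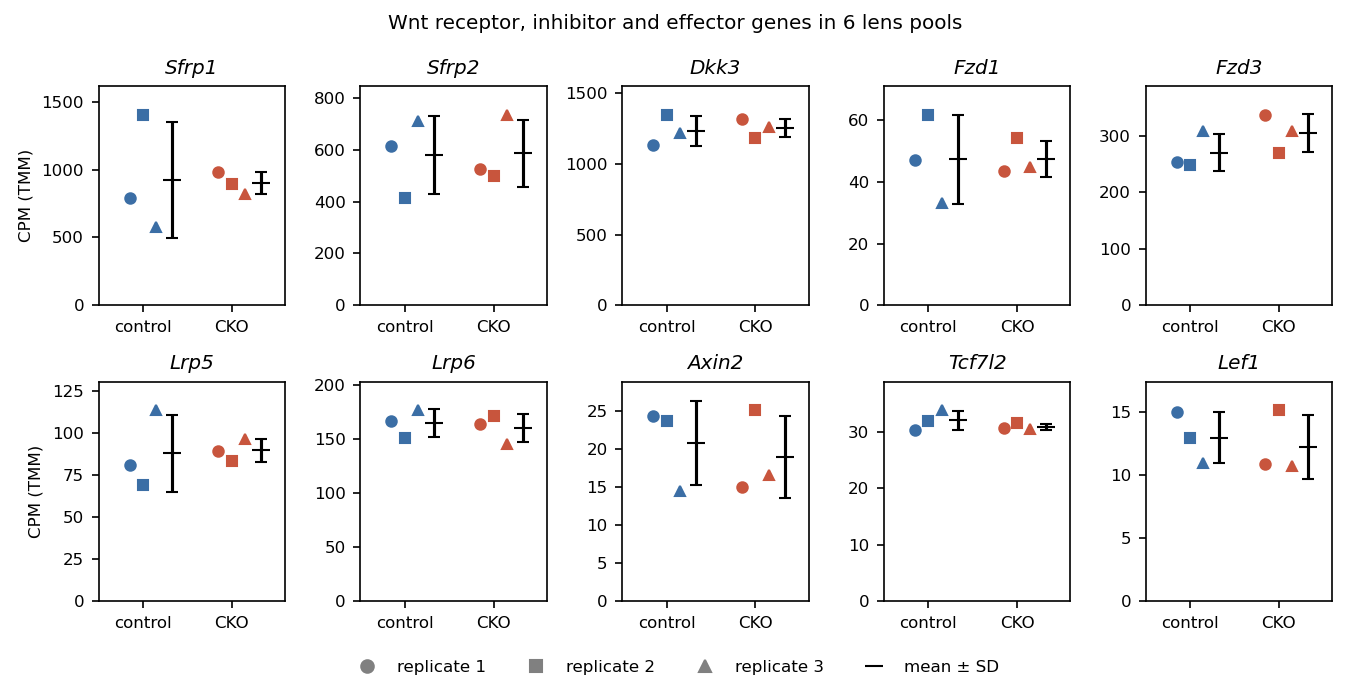
CPM of each of the 10 genes (linear axes from 0, one panel per gene) in the 3 control and 3 CKO pools, 1 point per pool with its replicate number as the symbol, and the group mean ± SD in black. The control and CKO points overlap for every gene, and Sfrp1 spreads most, from 576 to 1406 CPM in controls.

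Per length of transcript the secreted inhibitors had the highest levels of the 10 genes, and their log2 fold changes were between -0.04 and 0.02. Sfrp1 (ENSMUSG00000031548, chr8:23411502-23449632, plus strand), which binds Wnt ligands outside the cell, stood at 789, 1406 and 576 CPM in control pools 1 to 3 and at 983, 892 and 823 CPM in CKO pools 1 to 3. The CKO pools lay inside the control range, which was set by a high pool 2 and a low pool 3. The means were 923 ± 431 and 899 ± 80.1 CPM (SD, n = 3 pools each), a log2 fold change of -0.04 (SE 0.313, 95% interval -0.79 to 0.71, adjusted p = 1.0 in edgeR). The value depended on control pools 2 and 3. Without control pool 2, Sfrp1 was higher in the pools labelled CKO by 0.41 on the log2 scale. That difference had an unadjusted edgeR p of 0.0360 and an adjusted p of 0.723. The groups no longer overlapped, as was so for 21.8% of all genes in that fit. Without control pool 3 the value was -0.29.

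Sfrp2 (chr3:83766321-83774316, plus strand), another secreted Frizzled-related protein, had 615, 413 and 709.8 CPM in the controls and 526, 499 and 736 CPM in the CKO pools. Its lowest value was in control pool 2, where Sfrp1 was highest, and the groups overlapped. The log2 fold change was 0.02 (SE 0.237, 95% interval -0.55 to 0.59). Dkk3 (chr7:112116017-112159057, minus strand), a member of the Dickkopf family that is not a classical Lrp inhibitor, had 1135, 1349 and 1219 CPM in controls and 1315, 1185 and 1259.9 CPM in CKO pools. Dkk3 was among the steadiest of the 10 genes, with a 1.19-fold range over the 6 pools, and its log2 fold change was 0.02 (SE 0.107, 95% interval -0.23 to 0.28).

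Among the receptors, Fzd1, Lrp5 and Lrp6 had log2 fold changes between -0.04 and 0.03, and Fzd3 had the largest of the 10 genes at 0.18, none past the test. Fzd1 (chr5:4753839-4758035, minus strand), a Frizzled receptor, gave 47.1, 61.9 and 33.1 CPM in the controls and 43.5, 54.2 and 44.9 CPM in the CKO pools. The CKO values fell within the control range, and the log2 fold change was 0.01 (SE 0.226). Fzd3 (chr14:65192449-65262463, minus strand), a Frizzled receptor best known for planar cell polarity, gave 254, 248 and 309 CPM in controls and 338, 270.3 and 309 CPM in CKO pools. Control pool 3 was as high as CKO pool 3, so the groups overlapped, and the log2 fold change of 0.18 (SE 0.122, 95% interval -0.11 to 0.47) had an unadjusted edgeR p of 0.193. Without control pool 3 it was 0.28, with an unadjusted edgeR p of 0.0392 and an adjusted p of 0.512. In that fit 9.59% of all genes had an unadjusted p under 0.05. The groups of Fzd3 no longer overlapped there, as was so for 27.7% of all genes. Without CKO pool 2 they did not overlap either, as was so for 15.5% of all genes.

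Lrp5 (chr19:3584828-3686564, minus strand) and Lrp6 (chr6:134446476-134566965, minus strand) encode the LDL receptor-related co-receptors that take the Wnt signal to the destruction complex. Lrp5 had 80.8, 69.2 and 113 CPM in control pools and 89.1, 83.0 and 96.5 CPM in CKO pools. The control pools spanned the CKO pools on both sides, with a log2 fold change of 0.03 (SE 0.182). It turned to -0.10 without control pool 2 and to 0.25 without control pool 3. In the latter fit Lrp5 had an unadjusted edgeR p of 0.0540 and an adjusted p of 0.529. Its groups no longer overlapped there, as was so for 27.7% of all genes. Lrp6 had 167, 151 and 177 CPM in controls and 164, 171 and 146 CPM in CKO pools. These values were close together and overlapped, and the log2 fold change was -0.04 (SE 0.0935, 95% interval -0.26 to 0.18).

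Axin2, Tcf7l2 and Lef1 had the lowest levels of the 10 genes per length of transcript, and their log2 fold changes were all slightly below 0, none past the test. Axin2 (chr11:108920349-108950783, plus strand), the scaffold and feedback target, had 24.3, 23.7 and 14.47 CPM in controls and 15.04, 25.1 and 16.7 CPM in CKO pools. High and low pools occurred in both groups: control pools 1 and 2 and CKO pool 2 were high, and the other 3 were low. The log2 fold change was -0.13 (SE 0.272, 95% interval -0.79 to 0.52), and without CKO pool 2 it was -0.39. Tcf7l2 (chr19:55741820-55933654, plus strand), a TCF protein that binds DNA with β-catenin, had 30.3, 32.0 and 33.8 CPM in controls and 30.7, 31.5 and 30.5 CPM in CKO pools. It was the steadiest of the 10, with a 1.11-fold range over the 6 pools, and its log2 fold change was -0.05 (SE 0.0828, 95% interval -0.25 to 0.14). Without control pool 1 its groups no longer overlapped, as was so for 13.5% of all genes in that fit. Lef1 (chr3:131110471-131224356, plus strand), the LEF member of the same family, had 15.02, 12.9 and 10.9 CPM in controls and 10.8, 15.1 and 10.7 CPM in CKO pools. As for Axin2, CKO pool 2 was high and CKO pools 1 and 3 were low, and the log2 fold change was -0.08 (SE 0.198, 95% interval -0.56 to 0.39). Without CKO pool 2, Lef1 was -0.27 (unadjusted edgeR p of 0.212, adjusted p of 1.0) and its groups no longer overlapped, as was so for 15.5% of all genes in that fit. Exons of Axin2, Lef1 and Sfrp2 overlap annotated antisense genes, whose reads cannot be told apart if strand was not used in counting.

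**Figure D2:**
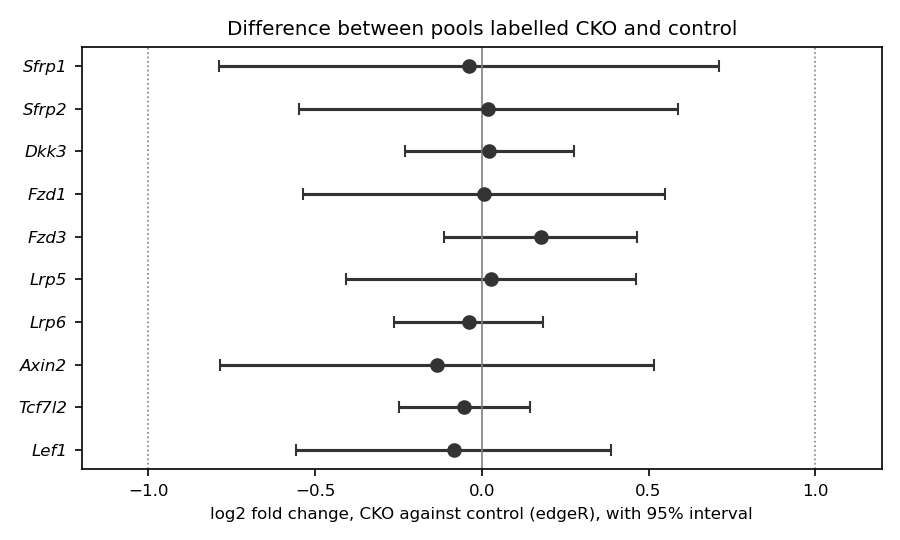
Log2 fold change (CKO over control, edgeR) of each of the 10 genes as a point with its 95% confidence interval as a bar; dotted lines mark a 2-fold change. Every interval includes 0, with the narrowest for Tcf7l2 (-0.25 to 0.14) and the widest for Sfrp1 (-0.79 to 0.71).

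Motif letters in the upstream sequence of the 10 genes were searched because TCF/LEF proteins act in this pathway and Gata3 is the deleted factor. RefSeq windows of 250 bases before a gene start (GRCm38.p6) were found for 5 of the 10 genes, in 9 windows. These genes were Axin2, Fzd1, Lef1, Sfrp2 and Tcf7l2. The TCF/LEF letters searched were CTTTG followed by A or T and again by A or T. The GATA letters searched were GATA with A or T before it and A or G after it. Both were searched on either strand, and a TCF/LEF match ending in GAT can share letters with a GATA match, though no match in the printed windows does. TCF/LEF letters stood in 2 of the 9 windows, those at internal starts of Lef1 and Tcf7l2, and in 14.8% of all 32851 windows of that length. GATA letters stood in 3 of the 9, in the same windows and in that of Fzd1, and in 26.5% of all windows. The other windows of Lef1 and Tcf7l2, among them those at their gene starts, and that of Sfrp2 had no match of either kind. Axin2, the usual readout of the pathway, had no match of either kind in its window, which says only that these letters are not there. A match is a description of the letters and was not tested as a binding site. The 4 windows are printed 5′ to 3′ on the strand of the gene, with the matched letters in capitals. They lie at chr11:108920099-108920348 (Axin2, plus), chr5:4758217-4758466 (Fzd1, minus), chr3:131156044-131156293 (Lef1, plus) and chr19:55895071-55895320 (Tcf7l2, plus).
Axin2: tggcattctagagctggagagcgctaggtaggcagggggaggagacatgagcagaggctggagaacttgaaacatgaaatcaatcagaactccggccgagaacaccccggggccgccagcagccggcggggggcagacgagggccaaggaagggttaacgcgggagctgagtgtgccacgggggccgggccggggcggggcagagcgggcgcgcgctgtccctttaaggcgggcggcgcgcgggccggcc
Fzd1: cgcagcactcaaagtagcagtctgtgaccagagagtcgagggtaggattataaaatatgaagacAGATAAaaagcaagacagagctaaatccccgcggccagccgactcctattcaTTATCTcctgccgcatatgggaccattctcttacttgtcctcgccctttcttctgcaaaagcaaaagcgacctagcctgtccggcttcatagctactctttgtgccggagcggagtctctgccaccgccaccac
Lef1: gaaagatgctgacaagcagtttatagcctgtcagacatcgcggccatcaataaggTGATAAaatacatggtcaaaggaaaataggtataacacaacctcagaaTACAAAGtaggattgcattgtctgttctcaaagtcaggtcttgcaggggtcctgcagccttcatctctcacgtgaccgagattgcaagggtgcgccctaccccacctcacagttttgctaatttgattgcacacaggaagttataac
Tcf7l2: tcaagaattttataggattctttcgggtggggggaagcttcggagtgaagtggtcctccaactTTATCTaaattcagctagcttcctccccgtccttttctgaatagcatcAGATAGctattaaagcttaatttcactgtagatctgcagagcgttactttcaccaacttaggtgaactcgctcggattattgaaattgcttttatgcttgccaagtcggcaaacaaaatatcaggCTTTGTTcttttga
In the Lef1 window the TCF/LEF letters read CTTTGTA on the opposite strand, at 147 to 141 bases before the start, and the GATA letters TGATAA at 195 to 190 bases before it. In the Tcf7l2 window the TCF/LEF letters CTTTGTT stand 14 to 8 bases before the start.

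Per kilobase of exon, the scale on which different genes can be set side by side, the order in the controls ran from the inhibitors to the effectors. Dkk3 had 367 CPM per kb (338 to 402 over the 3 control pools), Sfrp2 had 289 (206 to 354) and Sfrp1 had 211 (132 to 322). Sfrp2 overlapped with both Dkk3 and Sfrp1, while Dkk3 lay above Sfrp1 in all 3 control pools without overlap. Fzd3 followed at 21.2 CPM per kb (19.5 to 24.2), Lrp6 at 17.6 (16.1 to 18.8), Lrp5 at 17.0 (13.4 to 21.9) and Fzd1 at 11.3 (7.89 to 14.7). Sfrp1 lay above Fzd3, and Fzd3 above Lrp6, without overlap, while Lrp5 overlapped with Fzd3. Lrp6, Lrp5 and Fzd1 overlapped in turn. Tcf7l2 had 7.36 CPM per kb (6.97 to 7.76), Axin2 4.89 (3.40 to 5.71) and Lef1 3.69 (3.12 to 4.28). Tcf7l2 lay below Fzd1 and above Axin2 without overlap, and Axin2 and Lef1 overlapped.

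**Figure D3:**
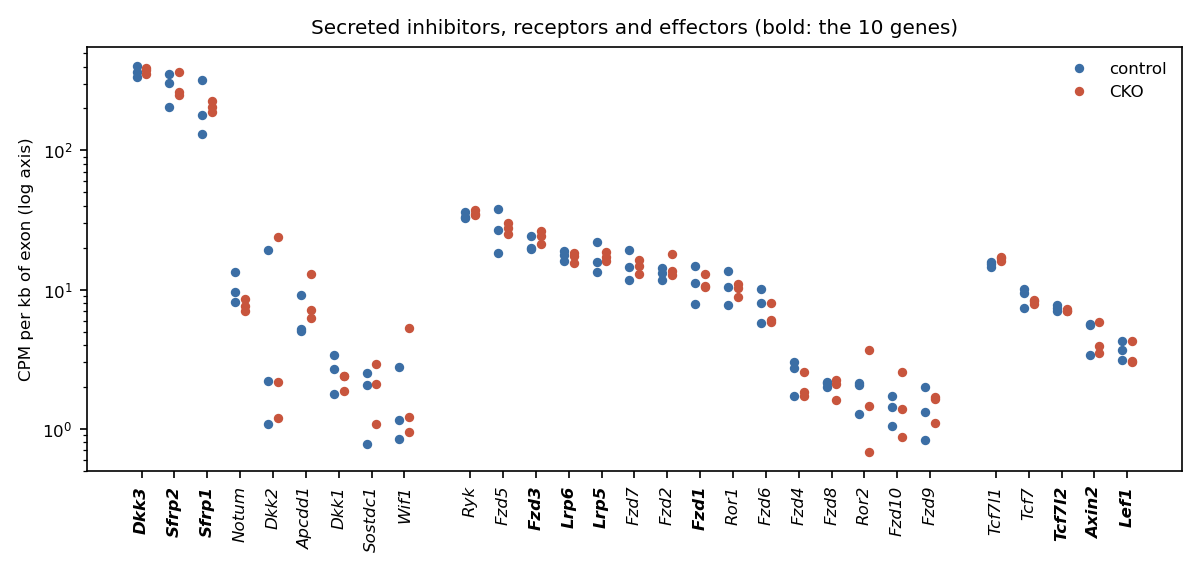
CPM per kilobase of exon (log axis) in the 3 control (blue) and 3 CKO (red) pools, 1 point per pool, for the 10 genes (bold) and for other secreted inhibitors, receptors and effectors. Dkk3, Sfrp2 and Sfrp1 (control means 367, 289 and 211) stand well above the other members, and Lef1 is the lowest of them at 3.69.

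Ratios of genes in the same role were compared within each library, where normalization cancels. The ratio of Sfrp1 to Sfrp2 counts was 1.28, 3.40 and 0.812 in controls and 1.87, 1.79 and 1.12 in CKO pools, and that of Lrp5 to Lrp6 was 0.484, 0.459 and 0.641 against 0.543, 0.485 and 0.663. The ratio of Tcf7l2 to Lef1 was 2.02, 2.48 and 3.08 in controls and 2.83, 2.08 and 2.85 in CKO pools, and that of Fzd1 to Fzd3 ran from 0.107 to 0.249. These are ratios of counts, not corrected for length, and the control and CKO values overlapped for all 4 pairs. The log2 differences between the groups were 0.03, 0.10, 0.04 and -0.13 for these 4 ratios, with exact two-sided permutation p-values of 1, 0.5, 0.9 and 0.8 and adjusted p-values of 1 each. With 3 pools against 3 the smallest p this test allows is 0.1.

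Several of the 10 genes were high or low in the same pools as some marker lists, though not in every pool. Sfrp1 was highest in control pool 2, which had the highest lens fibre sum (160754 CPM). That pool also had the highest lens epithelium (1301 CPM), blood (1446 CPM), vessel (352 CPM) and macrophage (101 CPM) sums. The match of Sfrp1 was therefore not particular to fibre markers. Sfrp2 and Lrp5 were lowest in control pool 2, the pool with the lowest retina sum (802.5 CPM). Sfrp2 and Lrp5 were highest in control pool 3 and CKO pool 3, whose retina sums of 1820 and 1673 CPM were the highest. Axin2 and Lef1 were highest in control pools 1 and 2 and CKO pool 2, the 3 pools with the highest mesenchyme sums (2394, 685 and 4206 CPM). The same 3 pools also had the highest sums of the pigment cell (341, 98.6 and 341 CPM), surface ectoderm (101, 99.6 and 154 CPM), vessel, blood, macrophage and lens epithelium markers, so the match was not particular to mesenchyme. Not all pools followed these matches. Control pool 1 had a higher lens fibre sum (80654.5 CPM) than any CKO pool, yet less Sfrp1 (789 CPM, against 823 to 983). Axin2 stood at 23.7 CPM in control pool 2 and 16.7 CPM in CKO pool 3, at similar mesenchyme sums (685 and 621 CPM). The part of these marker lists in the levels of the 10 genes was not tested. Dkk2, a Dickkopf family gene outside the 10 that was singled out after its values were seen, stood at 70.9 and 87.8 CPM in control pool 1 and CKO pool 2 and between 4.02 and 8.24 CPM in the other 4 pools. Sfrp1, Axin2, Sfrp2, Fzd1 and Lrp5 lay at the 90, 85.9, 83.2, 81.6 and 74.0 percentiles of within-group spread over all genes, and Tcf7l2 at the 5.62 percentile. Over the 10 genes the median within-group SD was 0.257 on the log2 scale, beside 0.161 over all genes tested.

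**Figure D4:**
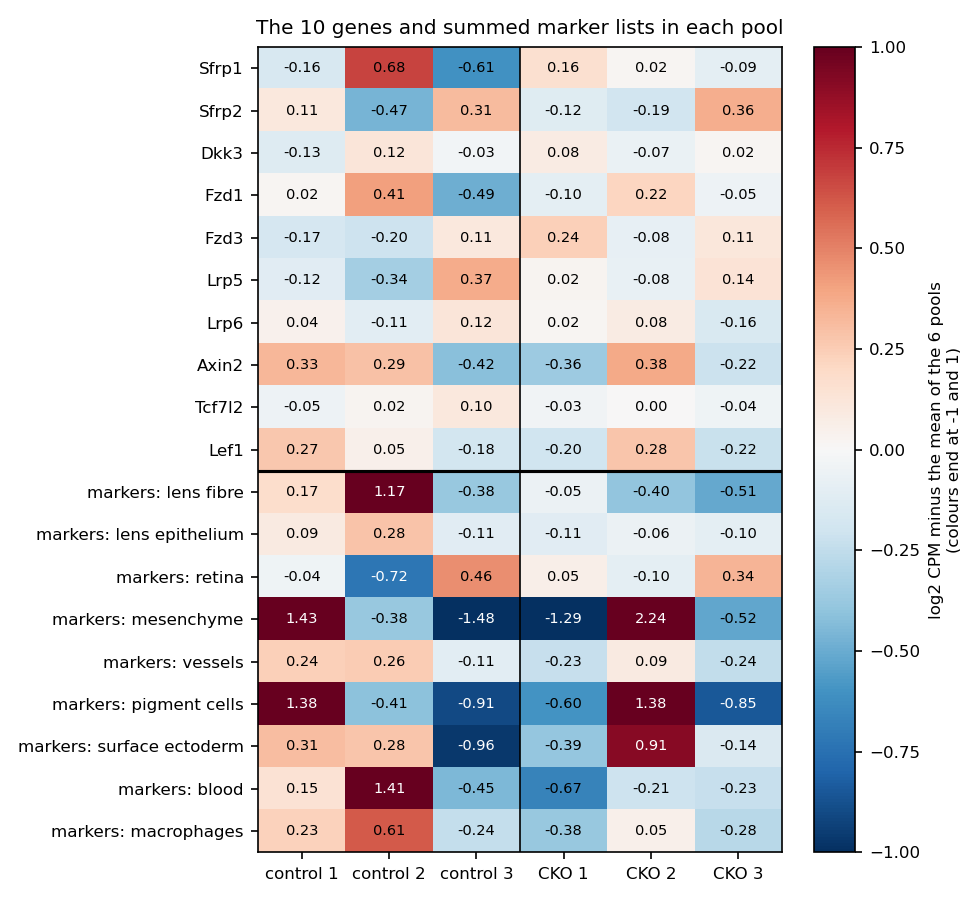
Log2 deviation of each of the 10 genes and of summed marker lists from their mean over the 6 pools, written in each cell and shown in colour (red above, blue below). Sfrp1 stands at 0.68 in control pool 2 and at -0.61 in control pool 3, while Tcf7l2 stays near 0 throughout.

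Few of the other Wnt pathway genes stood apart. Of 86 further Wnt pathway genes tested in 9 lists, some of which share genes, 36 had a log2 fold change below 0 and 50 above 0, with a median of 0.03, and 81 lay within 0.5 of 0 in either direction. None passed in edgeR after adjustment, 1 had an unadjusted p under 0.05 and 4 had groups that did not overlap, beside the shares of 3.55% and 8.36% over all genes. The 22 other genes of the lists, among them Wnt1, Wnt3a and Sost, were not found by name among the 13024 genes with counts. They could therefore not be tested. The 1 gene was Wnt9a (ENSMUSG00000000126, chr11:59306928-59333552, plus strand), a Wnt ligand at low counts. It had 55, 47 and 37 counts in controls and 92, 171 and 100 in the pools labelled CKO, each of these being above all controls. Its log2 fold change was 1.17 (SE 0.306, 95% interval 0.44 to 1.90), with an unadjusted edgeR p of 0.00686 and an adjusted p of 0.837. In DESeq2 the unadjusted p was 0.000868 and the adjusted p 0.101, also above 0.05.

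Among the 9 ligands tested, 3 were lower and 6 higher. Wnt7b, the ligand with the highest level per kb (42.8 CPM per kb in controls), had 129, 295 and 112 CPM in controls and 188, 165 and 161 CPM in CKO pools. Its log2 fold change was -0.06, and its reads may include those of an overlapping antisense gene. The same holds for Notum, Ctnnb1, Tcf7l1, Ccnd1 and Rhoa below, whose exons also overlap annotated antisense genes. Of the 6 other extracellular inhibitors, 2 were lower and 4 higher. Notum, a deacylase that inactivates Wnt ligands, had a log2 fold change of -0.41 (SE 0.198, adjusted p = 1.0 in edgeR). Of 12 other receptors, 6 were lower and 6 higher, and Kremen1, a co-receptor for Dickkopf proteins, had 61.3, 65.5 and 60.3 CPM in controls and 47.3, 57.2 and 55.9 in CKO pools. Its groups did not overlap, and its log2 fold change of -0.22 had an adjusted p of 1.0 in edgeR. Ctnnb1 (β-catenin), the most abundant of 21 cytoplasmic genes, was at 1431 ± 64.6 and 1451 ± 30.4 CPM (SD, n = 3 pools each), a log2 fold change of 0.02. Of 14 other nuclear genes, 5 were lower and 9 higher, and Tcf7l1 had a log2 fold change of 0.13 without overlap (adjusted p = 1.0 in edgeR). Of 9 target genes, 5 were lower and 4 higher, and Myc had a log2 fold change of -0.39 without overlap (adjusted p = 1.0 in edgeR). The 16 planar cell polarity genes were split 8 to 8, with a median of 0.00. Of the genes that the rule named beyond these, Wls, which carries Wnt ligands to the surface, was at 0.12 on the log2 scale and Porcn, which adds their lipid, at -0.11. The receptor Ryk was at 0.06, the R-spondin receptors Lgr4 and Lgr5 at -0.08 and 0.13, and Dact3, a Dishevelled-binding protein, at 0.24. The co-repressor Aes was at 0.08, the cell cycle target Ccnd1 at 0.14, the small GTPase Rhoa at 0.11 and the polarity gene Prickle1 at -0.47, and none of these passed in edgeR.

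**Figure D5:**
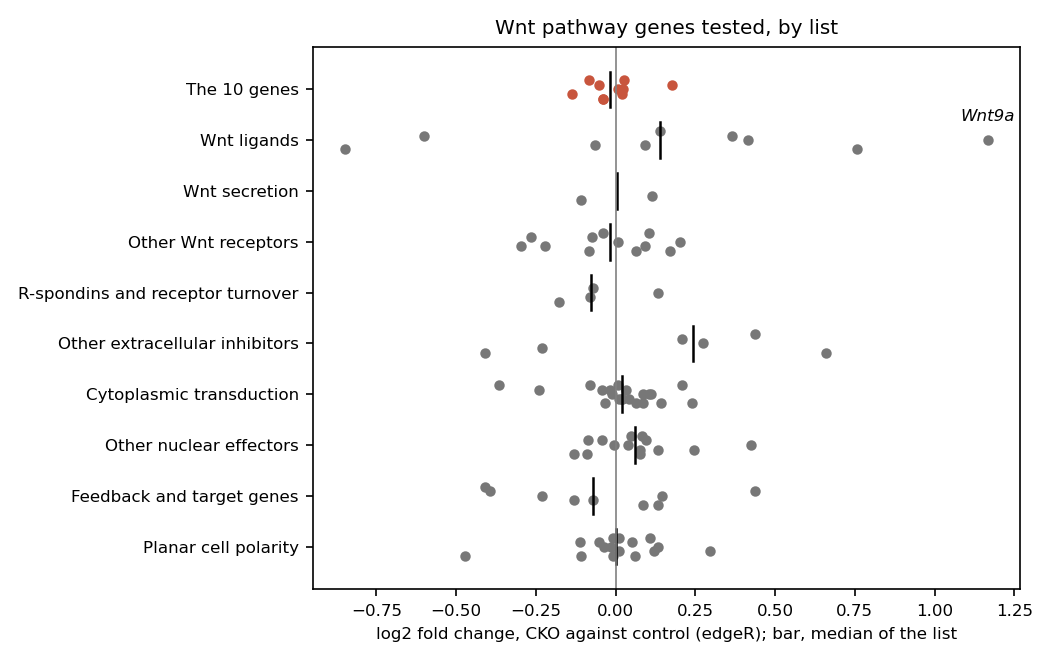
Log2 fold change (CKO over control) of the 86 further Wnt pathway genes in 9 lists and of the 10 genes (top row, red), 1 point per gene, with black bars for the medians. Most points lie within 0.5 of 0, and Wnt9a at 1.17 and Wnt7a at -0.85 are the farthest from it.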

How the data were processed

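The authors prepared strand-specific poly(A) libraries, aligned reads to mm10 and deposited raw counts per RefSeq gene for genes with a mean FPKM above 1, so the values are whole-number counts with no normalization. The submitters' processing notes name TopHat2 2.0.13, HTSeq 0.6.1, Cuffdiff 2.2.1 and DESeq2. How HTSeq treated strand and overlapping genes is not given in the sources used here. CKO pools are numbered by their sample titles.

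A gene was kept where 3 or more libraries had 10 or more counts. TMM factors scaled the libraries, and the robust quasi-likelihood test of edgeR 4.0.16 in R 4.3.3 compared the groups, with p-values adjusted by Benjamini-Hochberg over every gene kept. Ratios used an exact two-sided permutation test. CPM per kb used exon lengths of RefSeq-matched GENCODE M21 transcripts. Alternatives were DESeq2 1.42.0, limma 3.58.1 voom, other normalization and filters, a replicate block, each library left out, and a fit of the 4 pools low in mesenchyme markers. The script was tested on simulated data. Members and gene lists were chosen with earlier results of these data known. Genes named beyond the 10 had an unadjusted p under 0.05 without overlap, the highest level per kb of their list, or its smallest p where no gene of the list was under 0.05. Replicate pools differed by more than sampling noise, and p-values weigh the difference between the groups against the spread between pools. Counting error alone was at most 7.74% (Lef1) and at least 0.747% (Dkk3), below the spread between pools for these. Plots used Python 3.11.15 and matplotlib 3.10.9.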

Additional observations from a re-analysis of the deposited data

How the results depend on the processing

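No member passed at an adjusted p of 0.05 in any setting. DESeq2 called 85 genes of the whole table. Of the 86 wider pathway genes, 2 had an unadjusted p under 0.05 in DESeq2 and 2 with the replicate block. The shares over all genes were 3.94% in DESeq2 and 4.01% with the block. Of 88 values of single genes under the other normalizations, filters, tools, the block and the 4-pool fit, 85 kept their direction and side of the threshold. The exceptions were Sfrp1, at 0.050 in limma voom and 0.062 with the replicate block, and Fzd1, at -0.093 in the 4 pools low in mesenchyme markers, an alternative chosen after seeing the data. In those 4 pools 173 genes had an unadjusted p under 0.05, 2 members did not overlap (21.4% of all genes did not), the median of the members was -0.080 and the log2 difference of the Sfrp1 to Sfrp2 ratio was -0.20. The cause was not tested. The replicate numbers share only a number (correlations of deviations -0.51, 0.09 and 0.48 for numbers 1 to 3), and the replicate block moved the count of genes with an unadjusted p under 0.05 from 457 to 516.

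When single libraries were left out, 0 to 1 genes passed at an adjusted p of 0.05 and 271 (without CKO pool 3) to 1234 (without control pool 3) had an unadjusted p under 0.05. Of the members, 0 to 1 had an unadjusted p under 0.05 and 0 to 2 did not overlap between groups (13.5% to 27.7% of all genes did not). Of the 86 wider genes, 1 to 14 had an unadjusted p under 0.05, Wnt9a among them each time. The share of all genes under 0.05 ran from 2.11% (without CKO pool 3) to 9.59% (without control pool 3, the fit with 14). The log2 fold changes ranged from -0.29 to 0.41 for Sfrp1, -0.18 to 0.19 for Sfrp2, -0.20 to 0.26 for Fzd1, -0.10 to 0.25 for Lrp5, -0.090 to 0.025 for Lrp6, -0.39 to 0.0084 for Axin2, -0.019 to 0.10 for Dkk3 and -0.27 to 0.053 for Lef1. Fzd3 (0.099 to 0.28) and Tcf7l2 (-0.074 to -0.012) kept their direction whichever library was left out. The ratio differences ranged from -0.43 to 0.60 (Sfrp1 to Sfrp2), -0.47 to 0.14 (Fzd1 to Fzd3), -0.026 to 0.25 (Lrp5 to Lrp6) and -0.11 to 0.20 (Tcf7l2 to Lef1). With 3 pools a group, depth added little to the spread except for Tcf7l2, whose counting error of 4.69% was as large as its spread.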
